A study of Mus musculus with 12 samples.

Results

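Expression of 10 genes of the bone morphogenetic protein (BMP) pathway was examined in 1-month-old mouse brain: the ligands *Bmp2*, *Bmp3*, *Bmp4*, *Bmp5*, *Bmp6* and *Bmp7*, the receptors *Bmpr1a*, *Bmpr1b* and *Bmpr2*, and the secreted antagonist *Nog* (Noggin). These genes were chosen by name, with earlier results of these data known, and all 10 were found among the 55536 annotated genes of the count tables. RNA was taken from cerebellum or cerebral cortex, with all cell types mixed, of *Snx14*-KO mice and WT control littermates, giving 12 libraries, 3 for each tissue and genotype. Within a tissue each library is from a separate mouse, but the labels do not say whether a cerebellum and a cortex of the same number came from 1 animal, so the tissue comparisons treat them as independent. *Snx14*-KO mice are homozygous for a CRISPR-induced frameshift deletion on the C57BL/6J background that every cell carries, and animals sampled at this age are those that survived, because part of the homozygous embryos die before birth. WT mice carry no engineered allele. The question here was how these BMP genes differ between cerebellum and cortex, and whether they differ between genotypes before the loss of Purkinje cells, the output neurons of the cerebellar cortex.

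BMPs are secreted dimers of the TGF-beta family that bring together type I receptors (*Bmpr1a*, *Bmpr1b*) and a type II receptor (*Bmpr2*), after which Smad1, Smad5 and Smad9 are phosphorylated and enter the nucleus with Smad4. Typical target genes are the *Id* genes, which encode inhibitors of basic helix-loop-helix factors, and the inhibitory Smads *Smad6* and *Smad7*. In the brain, BMPs pattern the dorsal neural tube, act on cerebellar granule cell precursors and on astrocytes, and several of them are made by the meninges, the connective tissue sheets that cover the brain.

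The libraries held 16672589 to 19887427 counts on genes. Values are given as counts per 1000000 counts of the library (CPM), after TMM normalization over the 12 libraries. The targeted gene, *Snx14*, lay between 63.8 and 66.4 CPM in WT cerebella and between 10.4 and 11.2 in *Snx14*-KO cerebella, and between 53.6 and 59.9 in WT cortices and 7.65 and 8.47 in *Snx14*-KO cortices, so the labels and the counts match. The granule cell gene *Gabra6* was at 482.1 CPM or more in every cerebellar library and at 2.02 or less in every cortical library, while the cortical neuron gene *Neurod6* was at 72.3 or more in cortex and 10.6 or less in cerebellum. A few libraries stood apart in cells that border the tissue. WT cerebellum replicate 1 had 84.4 CPM summed over 10 choroid plexus genes, where the other 5 cerebella had 983.9 to 7477, and it had the lowest cerebellar sum of 17 meningeal fibroblast genes (195.1 CPM). *Snx14*-KO cortex replicate 2 had 443.8 CPM over the meningeal genes, where the other 5 cortices had 118.8 to 179. In *Snx14*-KO cerebellum replicate 3 the sum of 11 microglia and macrophage genes was 638.6 CPM.

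In WT mice, the 2 tissues differed in the levels of some BMP ligands. *Bmp3*, an atypical ligand that can oppose other BMPs, had 27.6, 34.7 and 32.8 CPM in WT cortices, while WT cerebella had 1, 4 and 0 counts in total. *Bmp5* and *Bmp6*, which belong to the same ligand subfamily as *Bmp7*, were the ligands higher in cerebellum. *Bmp5* was at 15.1, 12.96 and 8.14 CPM in WT cerebella and at 2.71, 2.90 and 1.54 in WT cortices. The ranges of all 3 genes were separate between the tissues.

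Between WT cerebellum and WT cortex, 5 of the 10 genes passed the quasi-likelihood test of edgeR, with limits of 0.05 for the p adjusted by the Benjamini-Hochberg method and 0.50 for the size of the log2 fold change. Of all 18543 genes tested, 40.4% passed, so the share of BMP genes is near the background. The groups were separate for 7 of the 10, where 64.2% of all genes were. Lower in cerebellum were *Bmp3* (log2 fold change -8.31, SE 0.333, adjusted p = 8.34e-09), *Bmp2* (-1.15, SE 0.220, adjusted p = 0.00117) and *Bmpr2* (-0.74, SE 0.0612, adjusted p = 2.3e-06). *Bmp2* was at 2.11, 2.20 and 1.81 CPM in WT cerebella and at 3.83, 5.54 and 4.27 in WT cortices. The *Bmp3* value rests on the few cerebellar counts and lay between -9.86 and -7.73 as single libraries were left out. Higher in cerebellum were *Bmp5* (2.34, SE 0.279, adjusted p = 3.99e-05) and *Bmp6* (1.53, SE 0.258, adjusted p = 0.000485). *Bmp6* was at 11.2, 19.4 and 25.1 CPM in WT cerebella and at 7.28, 5.70 and 6.38 in WT cortices, so its lowest cerebellar library, replicate 1, was still above all cortices. Marker lists differed between these tissues as well. In WT cerebellum, 10 of 10 choroid plexus genes (median log2 fold change 4.99) and 8 of 17 meningeal genes (median 0.66) were called higher, where 19% of all genes were. The choroid plexus sum in WT cerebella 1, 2 and 3 was 84.4, 2787 and 7477 CPM, in the same order as *Bmp6* over these 3 libraries, and in WT cortices 142.5, 16.7 and 20.7 CPM. The part of these lists in the *Bmp6* value was not tested. Of the exon bases of *Bmp5*, 46.7% are also exons of the non-coding gene *Gm26903*, and because the counting ignored the strand, read pairs there were counted for both genes and cannot be assigned to either. The same holds for smaller shares of *Bmp6* (5.74%, with *Txndc5*), *Bmpr1a* (4.57%, with *Gm17110*) and *Bmp4* (3.96%, with *Gm15217*).

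The type I receptor *Bmpr1a* was just inside the fold limit. It had 90.0, 121.4 and 102.9 CPM in WT cerebella against 73.8, 76.2 and 73.9 in WT cortices, with no overlap (log2 fold change 0.4966, SE 0.0978, adjusted p = 0.00137 by the same test). Without WT cerebellum replicate 1 it passed, at 0.59 (adjusted p = 0.000126). *Bmpr2*, the type II receptor, had the reverse order, with 144.0, 157.1 and 144.8 CPM in cerebella and 249.0, 254.0 and 246.2 in cortices. The other 4 genes did not pass, with 95% intervals of the log2 difference of -1.01 to 0.13 for *Bmp4*, -0.86 to 0.41 for *Bmp7*, -0.40 to 0.02 for *Bmpr1b* and -0.48 to 0.32 for *Nog*. Without WT cerebellum replicate 2, *Bmp4* passed, at -0.74 (adjusted p = 0.029).

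Levels of different genes were compared per length, as CPM per kb of exon. In WT cerebella the receptors led, *Bmpr1a* at 16.5 ± 2.49 CPM per kb (SD, n = 3) and *Bmpr2* at 8.27 ± 0.407, with no overlap between them. *Nog* (5.36 ± 1.30), *Bmp6* (4.76 ± 1.78) and *Bmpr1b* (4.54 ± 0.277) came next with overlapping ranges. *Bmp5* (3.00 ± 0.888), *Bmp7* (1.97 ± 0.892) and *Bmp4* (1.10 ± 0.367) followed, each overlapping its neighbour. *Bmp2* (0.574 ± 0.0576) and *Bmp3* (0.0129 ± 0.0163) lay below all of these, apart from each other. Of the 6 ligands, *Bmp6* had the highest mean per length in cerebellum, but its range overlapped that of *Bmp5*.

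In WT cortices *Bmpr2* was first (13.9 ± 0.217 CPM per kb, SD, n = 3) and *Bmpr1a* second (11.8 ± 0.205), again with no overlap. *Nog* (5.68 ± 0.487) and *Bmpr1b* (5.21 ± 0.473) overlapped. *Bmp3* (4.29 ± 0.493) was the highest ligand per length, its lowest library above the highest of *Bmp7* (2.32 ± 0.190). *Bmp6* (1.65 ± 0.203), *Bmp4* (1.49 ± 0.146) and *Bmp2* (1.28 ± 0.249) overlapped in sequence, and *Bmp5* was last (0.592 ± 0.183). The plot of levels per length shows *Bmp3* higher in cortex, and *Bmp5* and *Bmp6* higher in cerebellum.

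**Figure D1:**
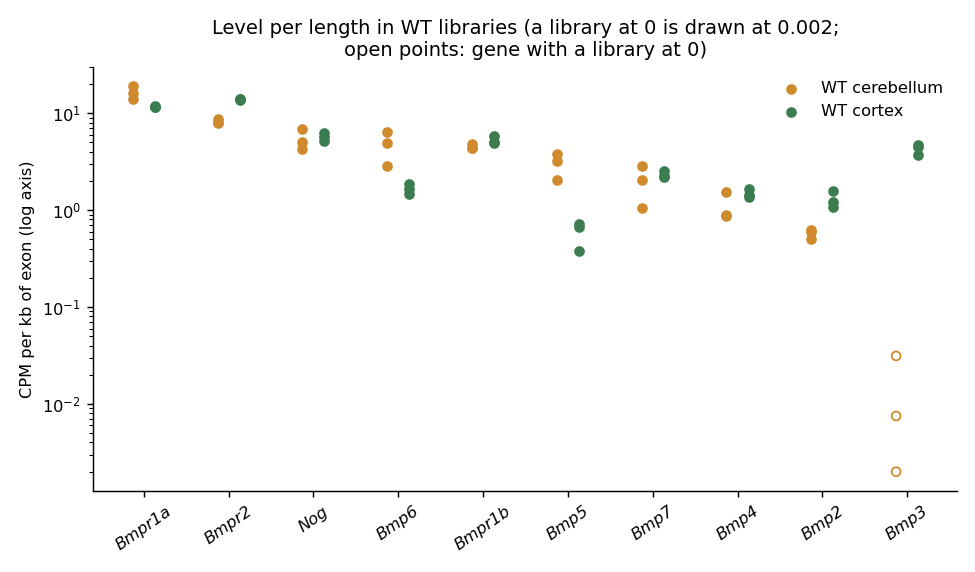
Level of each BMP gene per length in WT mice, in CPM per kb of exon on a log axis, with 3 points per tissue for the 3 libraries; *Bmp3* in cerebellum has 1 library at 0, drawn at 0.002, and its points are open. *Bmp3* averages 4.29 in cortex and 0.0129 in cerebellum, while *Bmp5* and *Bmp6* are higher in cerebellum.

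The sequences just before the annotated starts of *Bmp4* and *Bmp5* are shown because *Bmp4* had the largest genotype difference in cerebellum among the 9 genes with enough counts for the edgeR test, given below, and *Bmp5* the largest positive value in the WT tissue comparison. Both come from RefSeq (build GRCm38.p6) and are written 5′ to 3′ on the strand of the gene, with capitals for the GC box GGGCGG, the core of Sp1 sites. *Bmp4* is a minus-strand gene at chr14:46383520-46390669, and *Bmp5* a plus-strand gene at chr9:75775364-75900310.
Bmp4, chr14:46390670-46390919, minus strand: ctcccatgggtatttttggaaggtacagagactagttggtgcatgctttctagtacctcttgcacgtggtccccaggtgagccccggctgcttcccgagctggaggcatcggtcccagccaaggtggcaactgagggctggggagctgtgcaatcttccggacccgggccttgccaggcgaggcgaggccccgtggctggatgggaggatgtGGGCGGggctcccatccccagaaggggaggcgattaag
Bmp5, chr9:75775115-75775363, plus strand: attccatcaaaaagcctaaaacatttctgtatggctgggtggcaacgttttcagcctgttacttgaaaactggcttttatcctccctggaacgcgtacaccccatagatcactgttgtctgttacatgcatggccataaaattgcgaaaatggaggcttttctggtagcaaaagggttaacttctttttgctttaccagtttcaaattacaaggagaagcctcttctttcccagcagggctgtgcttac
The *Bmp4* stretch has 1 GC box and the *Bmp5* stretch, printed without the last base of its window, has none. The GC content of the 250 bases before the RefSeq start was 63.2% for *Bmp4* and 42.8% for *Bmp5*, with a median of 52.4% over 32851 RefSeq windows. On either strand, GGGCGG was found in 32.7% of all windows and in windows of 4 of the 6 BMP genes with an entry (*Bmp4*, *Bmp6*, *Bmpr1a* and *Bmpr2*). The palindrome GGCGCC, the GC-rich element bound by BMP Smads, was found in 9.59% of all windows and in those of *Bmpr1a* and *Bmpr2*. TATAAA was found in 12.4% of all windows and in the *Bmpr1b* window at chr3:141982265-141982514, but not in the other *Bmpr1b* windows. The windows of *Bmp6*, *Bmpr1a*, *Bmpr1b* and *Bmpr2* lie inside the GENCODE bounds of these genes, and those of *Bmp4* and *Bmp5* before them. These matches describe letters in the windows and not bound sites.

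Between genotypes in cerebellum, no BMP gene passed the quasi-likelihood test, but 3 genes were separate between the groups, all higher in *Snx14*-KO mice: the ligands *Bmp4* and *Bmp7* and the receptor *Bmpr1b*. *Bmp4*, a ligand of the *Bmp2* subfamily, was at 2.00, 3.41 and 1.97 CPM in WT and at 5.26, 6.23 and 4.98 in *Snx14*-KO cerebella. *Bmp7* was at 4.22, 8.16 and 11.4 CPM in WT and at 16.5, 16.2 and 16.7 in *Snx14*-KO cerebella. For *Bmp7* the 3 *Snx14*-KO mice were nearly level, while the WT mice spread widely, with replicate 1 lowest.

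The log2 fold change was 1.17 for *Bmp4* (SE 0.251, adjusted p = 0.204) and 1.06 for *Bmp7* (SE 0.287, adjusted p = 0.331) by the same edgeR test, so neither passed. DESeq2, the tool the study used, called both, at 1.16 (adjusted p = 0.0229) and 1.05 (adjusted p = 0.00904), where it called 0.76% of 21697 genes higher. The *Bmp7* value was 0.75 without WT cerebellum replicate 1 and 1.43 without WT cerebellum replicate 3. As single libraries were left out, *Bmp4* stayed between 1.03 and 1.47. *Bmpr1b*, a type I receptor, was at 26.1, 26.2 and 29.0 CPM in WT and 31.9, 29.6 and 33.5 in *Snx14*-KO cerebella (log2 fold change 0.24, SE 0.092, adjusted p = 0.525).

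Of the 10 genes, 9 had enough counts to be tested in cerebellum, 8 of them with a positive and 1 with a negative log2 fold change, and a median of 0.19 where that of all 18201 genes tested was -0.00062. The quasi-likelihood test called 0 of 9 (background 0.00549%, which is *Snx14* itself). At an unadjusted p under 0.05, 3 of 9 were higher (background 5.78%) and 0 lower (2.37%), and 3 of 9 were higher with no overlap (background 6.36%). These were *Bmp4*, *Bmp7* and *Bmpr1b* in both counts. With TMM factors taken within the tissue, the overlap of the groups was the same for every BMP gene.

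*Bmp6* and the remaining genes overlapped between genotypes in cerebellum. *Bmp6* had 11.2, 19.4 and 25.1 CPM in WT and 26.9, 22.6 and 22.4 in *Snx14*-KO cerebella (log2 fold change 0.37, SE 0.246), with 0.11 without WT replicate 1 and 0.66 without WT replicate 3. The 95% interval of the log2 fold change was -0.82 to 0.45 for *Bmp2*, -0.25 to 0.64 for *Bmp5*, -0.10 to 0.38 for *Bmpr1a*, -0.08 to 0.22 for *Bmpr2* and -0.47 to 0.60 for *Nog*. A change of the receptors *Bmpr1a* and *Bmpr2* as large as the fitted difference of *Bmp4* or *Bmp7* lies outside these intervals. *Bmp3*, left out by the filter on low counts, had 1, 4 and 0 counts in WT and 9, 4 and 18 in *Snx14*-KO cerebella, so the 2 groups touched at 4 counts.

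**Figure D2:**
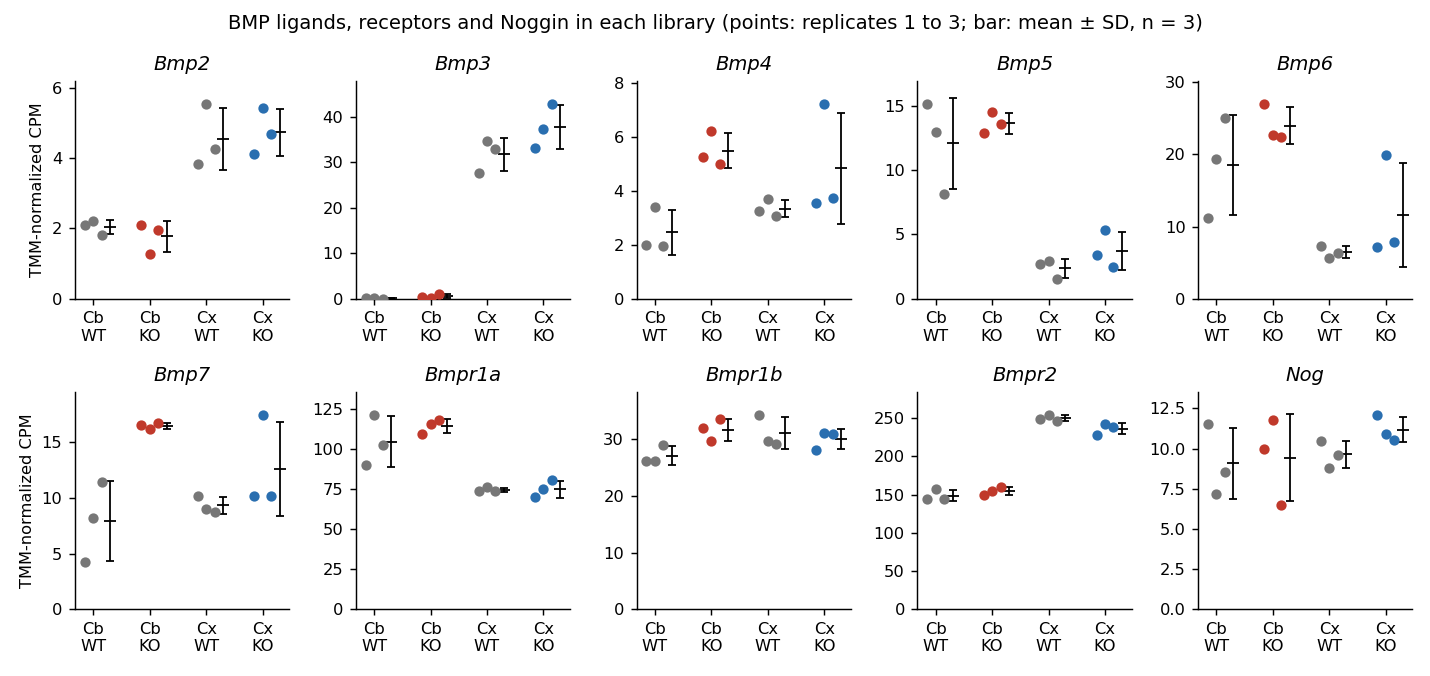
TMM-normalized CPM of the 10 BMP genes in each library of WT and *Snx14*-KO (KO) cerebellum (Cb) and cortex (Cx); points are replicates 1 to 3 from left to right and the bar beside them is the mean ± SD (n = 3). In cerebellum all *Snx14*-KO points of *Bmp4*, *Bmp7* and *Bmpr1b* lie above the WT points, and in cortex replicate 2 is the highest *Snx14*-KO point of *Bmp4*, *Bmp5*, *Bmp6* and *Bmp7*.

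Markers of meningeal fibroblasts had the same direction between genotypes in cerebellum as *Bmp4* and *Bmp7*. All 17 genes of the list had positive log2 fold changes in *Snx14*-KO cerebella, with a median of 1.16, and 13 of them were separate between the groups (background 6.36% separate and higher). None passed the quasi-likelihood test, and DESeq2 called 10 (background 0.76% higher). Their summed level was 195.1, 401.5 and 391.3 CPM in WT and 584.8, 529.4 and 574.6 in *Snx14*-KO cerebella, and no gene of the list was at 0 in a cerebellar library. *Col1a2*, a collagen gene of fibroblasts, was at 35.2, 48.2 and 33.4 CPM in WT and 77.4, 70.3 and 76.1 in *Snx14*-KO cerebella (log2 fold change 0.95, adjusted p = 0.0634 by the quasi-likelihood test). The part of the meningeal genes in the *Bmp4* and *Bmp7* values was not tested, and in whole tissue more cells of a type and more RNA per cell cannot be told apart.

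Other marker lists also leaned to 1 side, though no gene of them passed the quasi-likelihood test between genotypes. Of all 18201 genes tested in cerebellum, 1158 (6.36%) were separate and higher, and 1093 were separate and lower. DESeq2 called 165 of 21697 genes higher and 11 lower. In cerebellum, DESeq2 called 1 granule cell gene lower (*Fat2*, -0.51, adjusted p = 4.1e-05) and 1 endothelial and mural gene higher (*Vtn*, 0.64, adjusted p = 1.33e-05), both named after their values were seen. In *Snx14*-KO cerebella the log2 fold changes of the 11 microglia and macrophage genes were all positive (median 0.95), with a median of 0.24 without *Snx14*-KO replicate 3, and 1 gene was separate. Of 10 astrocyte and Bergmann glia genes, 8 were higher and 5 separate and higher (median 0.19), with a summed level of 6663 to 7215 CPM in WT and 7151 to 8049 in *Snx14*-KO cerebella. Of 6 oligodendrocyte precursor genes 5 were higher (median 0.33), and of 15 endothelial and mural genes 13 (median 0.19). Lower were all 7 granule cell genes (median -0.26, 2 separate), with 3275 to 3951 CPM in WT and 2778 to 3457 in *Snx14*-KO cerebella, all 10 oligodendrocyte genes (median -0.16, 1 separate) and 7 of 8 Purkinje cell genes (median -0.11). All 10 choroid plexus genes had negative values (median -0.76), but the median was 0.41 without WT replicate 3. The part of these lists in the BMP values was not tested.

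In cortex, no BMP gene passed between genotypes by either tool. Of 10 tested, 0 were called by the quasi-likelihood test (background 0.00548%), 0 of the 7 that DESeq2 gave an adjusted p were called by it (background 0.0238% higher and 0.0397% lower), and 3 were higher at an unadjusted p under 0.05 (*Bmp3*, *Bmp6* and *Bmp7*, background 2.24%). Of the 4 ligands *Bmp4*, *Bmp5*, *Bmp6* and *Bmp7*, each was highest in *Snx14*-KO replicate 2. *Bmp4* was at 3.24, 3.71 and 3.08 CPM in WT and 3.55, 7.20 and 3.74 in *Snx14*-KO cortices. *Bmp6* was at 7.28, 5.70 and 6.38 CPM in WT and 7.10, 19.9 and 7.89 in *Snx14*-KO cortices. *Bmp7* was at 10.2, 9.03 and 8.77 CPM in WT and 10.1, 17.4 and 10.2 in *Snx14*-KO cortices. For these 3 ligands, *Snx14*-KO replicates 1 and 3 lay in or close to the WT range.

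With all cortices the log2 fold changes were 0.54 (*Bmp4*), 0.64 (*Bmp5*), 0.86 (*Bmp6*) and 0.44 (*Bmp7*), with an adjusted p of 0.996 for each by the quasi-likelihood test. Without *Snx14*-KO replicate 2 they were 0.13, 0.28, 0.22 and 0.13, and 0 of the 10 genes had an unadjusted p under 0.05. The same count was 0 without WT cortex replicate 3, 1 without WT replicate 2 and 4 without *Snx14*-KO replicate 1 or 3. The summed meningeal level of that library was 443.8 CPM, against 165.3 and 158.5 in the other *Snx14*-KO cortices, and the median log2 fold change of the meningeal genes was 0.81 with it and 0.16 without it. The same library had the lowest sum of 10 oligodendrocyte genes (5770 CPM, where the other cortices had 7494 to 8540) and the highest of 10 astrocyte genes (3528, where the others had 2453 to 2958). Over all *Snx14*-KO cortices, the 10 oligodendrocyte genes all had negative log2 fold changes (median -0.30), 7 of them separate between the groups (background 5.02% separate and lower). The part of these lists in the ligand values was not tested. The plot of ligands against the meningeal sum gives both values in each of the 12 libraries.

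**Figure D3:**
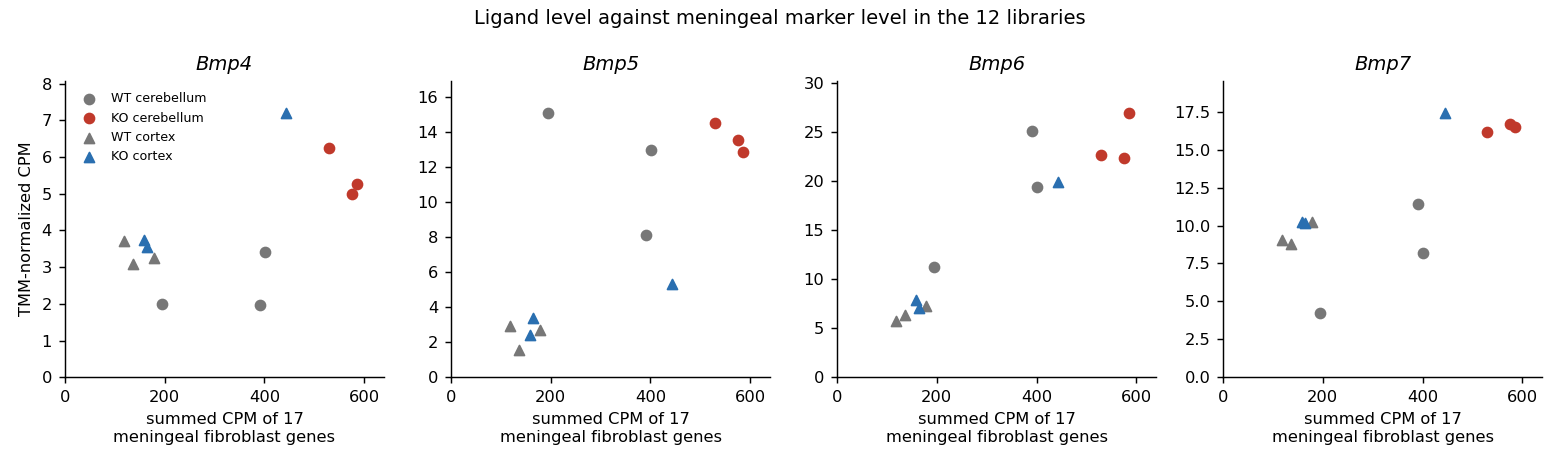
TMM-normalized CPM of *Bmp4*, *Bmp5*, *Bmp6* and *Bmp7* (vertical) against the summed CPM of 17 meningeal fibroblast genes (horizontal) in the 12 libraries, circles for cerebellum and triangles for cortex, grey for WT and coloured for *Snx14*-KO. The *Snx14*-KO cortex at 443.8 CPM on the horizontal axis is replicate 2, and *Bmp5* separates by tissue, with at most 5.33 CPM in cortex and at least 8.14 in cerebellum.

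The other cortical genes differed less. *Bmp3* was at 27.6, 34.7 and 32.8 CPM in WT and 33.1, 37.2 and 42.7 in *Snx14*-KO cortices (log2 fold change 0.25, SE 0.113). *Nog* was separate and higher, from 8.81 to 10.5 CPM in WT and from 10.6 to 12.1 in *Snx14*-KO cortices (0.22, SE 0.133), where 4.29% of genes were separate in that direction. *Bmpr2* was separate and lower, from 246.2 to 254.0 CPM in WT and from 228.3 to 242.2 in *Snx14*-KO cortices (-0.08, SE 0.0623, background 5.02%). The 95% intervals were -0.14 to 0.17 for *Bmpr1a*, -0.25 to 0.16 for *Bmpr1b* and -0.37 to 0.51 for *Bmp2*.

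**Figure D4:**
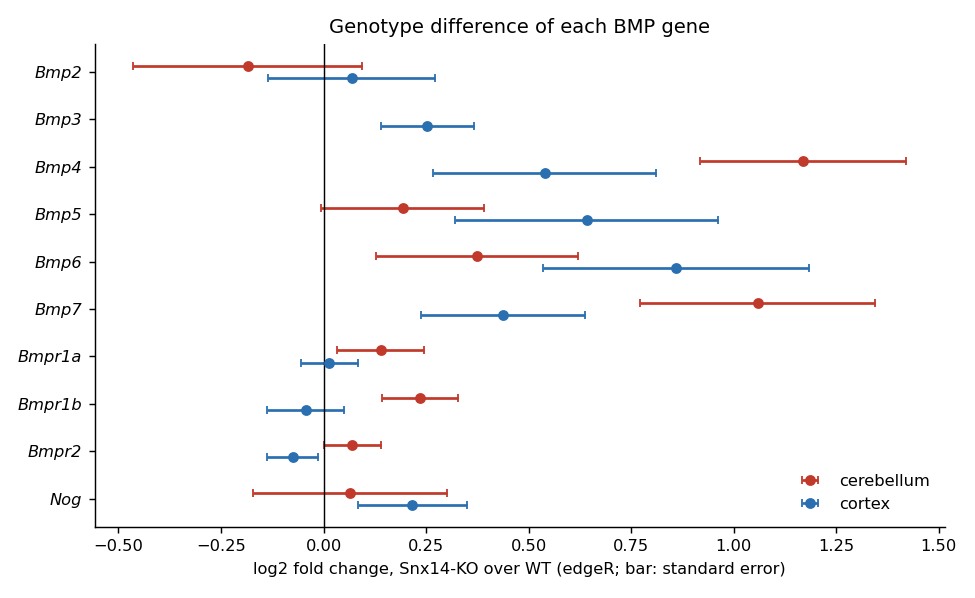
Log2 fold change of *Snx14*-KO over WT for each BMP gene, red for cerebellum and blue for cortex, with the standard error from edgeR's quasi-likelihood fit; *Bmp3* was not tested in cerebellum. *Bmp4* (1.17) and *Bmp7* (1.06) lie farthest right in cerebellum and *Bmp6* (0.86) in cortex.

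Whether the genotype difference itself differed between tissues was tested as an interaction over the 12 libraries. No BMP gene passed (0 of 10, background 0% of 19380 genes by the quasi-likelihood test, and 0 by DESeq2, background 0.147% higher and 0.00433% lower), and 1 had an unadjusted p under 0.05, against 5.68% of all genes in either direction. This count was 0 without *Snx14*-KO cerebellum replicate 3 and 3 without WT cerebellum replicate 3. The gene was *Bmp3*, with an estimate of 2.20 in cerebellum minus cortex (SE 0.761, adjusted p = 0.636), which rests on 0 to 18 counts per cerebellum. As single libraries were left out, this estimate lay between 1.5 and 3.7. The estimate was 0.62 for *Bmp4*, with a 95% interval of -0.24 to 1.47, and 0.61 for *Bmp7*, with -0.22 to 1.44. With single libraries left out, it was 0.44 to 1.02 for *Bmp4* and 0.31 to 0.98 for *Bmp7*. A difference between tissues was thus not detected for either ligand with 3 libraries per group.

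The rest of the pathway was described with 6 lists, in which 53 of the genes were tested in cerebellum and none passed the quasi-likelihood test between genotypes in either tissue. Among other ligands, *Gdf10*, a relative of *Bmp3*, was at 242.1, 301.3 and 210.8 CPM in WT and 258.2, 325.8 and 305.3 in *Snx14*-KO cerebella, but at 5.21 to 9.24 in WT cortices. Its difference between the WT tissues passed the test (log2 fold change 5.25, SE 0.208, adjusted p = 7.56e-09), so *Bmp3* and *Gdf10* had opposite tissue patterns. *Bmp8b* (0.14) and *Gdf7* (-0.88, SE 0.938) were the other ligands tested between genotypes in cerebellum.

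Among antagonists and extracellular modulators, 8 of 15 tested in cerebellum were higher and 7 lower, with a median of 0.04. *Fstl1*, which encodes a secreted follistatin-like glycoprotein, was at 26.8, 29.7 and 22.4 CPM in WT and 38.5, 41.4 and 41.6 in *Snx14*-KO cerebella, with no overlap. Its log2 fold change of 0.64 (SE 0.104) did not pass the quasi-likelihood test (adjusted p = 0.134) and was called by DESeq2 (adjusted p = 0.000493).

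The proteases that process BMPs or their antagonists were lower in 5 of 6 cases in cerebellum (median -0.15), with *Pcsk6*, a proprotein convertase, at -0.21 (SE 0.0865, adjusted p = 0.571). Of 9 other receptors and co-receptors, 8 were higher (median 0.15), with the co-receptor *Rgma* at 0.24 (SE 0.0828, adjusted p = 0.455). The 9 Smads and intracellular regulators were split 5 to 4 (median 0.02), with the repressor *Ski* at -0.23 (SE 0.0791, adjusted p = 0.455).

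Target genes gave no called difference between genotypes. Of 11 tested in cerebellum, 8 were higher and 3 lower, with a median of 0.11, which was 0.02 without *Snx14*-KO cerebellum replicate 2 and 0.20 without WT cerebellum replicate 3. *Id4* was at 178.0, 205.4 and 184.5 CPM in WT and 208.5, 217.2 and 217.5 in *Snx14*-KO cerebella, separate by a small margin (log2 fold change 0.19, SE 0.0738, adjusted p = 0.515 by the quasi-likelihood test). *Id1* (0.22), *Id3* (0.33), *Smad6* (0.33), *Smad7* (0.11) and *Id2* (-0.08) overlapped between genotypes. In cortex, *Smad6* was at 1.06, 1.29 and 1.31 CPM in WT and 1.49, 3.79 and 1.72 in *Snx14*-KO mice, again highest in replicate 2 (0.95, SE 0.37, adjusted p = 0.996). Between WT tissues, 6 of 11 target genes passed as higher in cerebellum and 0 as lower (background 19% and 21.4%), with *Id4* at 1.06 (adjusted p = 3.5e-05) among them.

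**Figure D5:**
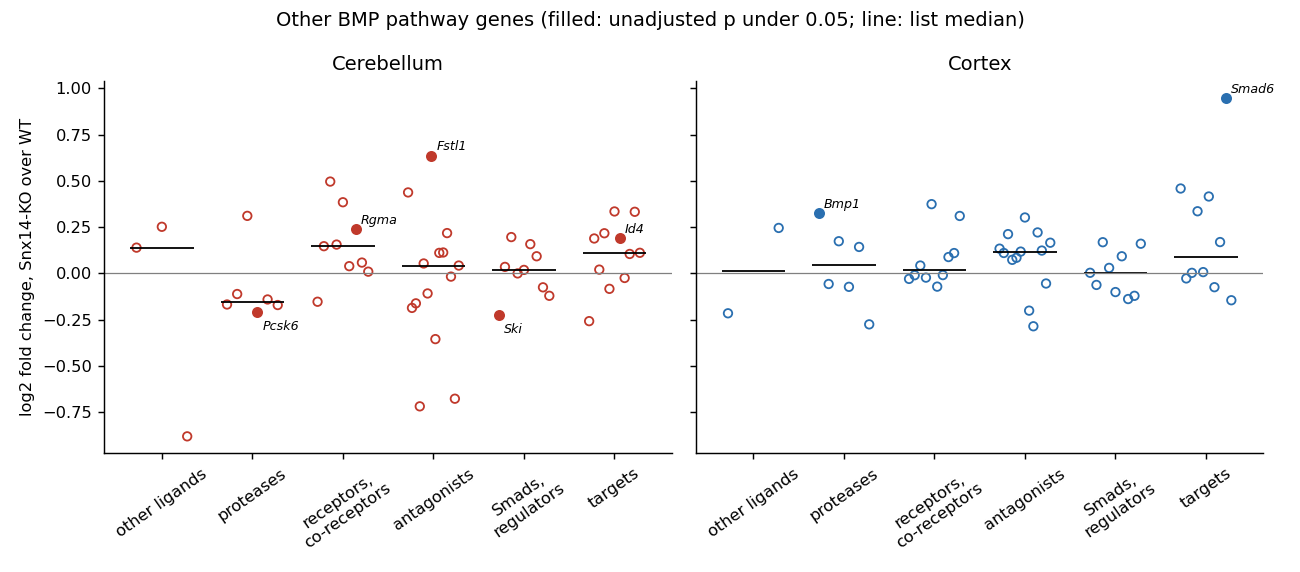
Log2 fold change of *Snx14*-KO over WT for the other BMP pathway genes in cerebellum (left) and cortex (right), 1 point per gene in 6 lists (1 antagonist is not drawn but counts in its median), filled where the unadjusted p was under 0.05, with the list median as a line. Of the genes drawn, *Fstl1* (0.64) stands highest in cerebellum and *Smad6* (0.95) in cortex, and *Bmp1* (0.32) in cortex is labelled after its value was seen.

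The genes most like each BMP gene over the 12 libraries were found by Pearson's r of log2 CPM centred on the mean of the tissue, among 19380 genes. These are descriptions over libraries that share genotype groups and dissections. For *Bmp4* they were *Fn1* (r = 0.965), *Thbd* (0.964) and *Islr* (0.964), of which *Fn1* encodes the matrix protein fibronectin. For *Bmp6* they were *Igf2* (0.974), a growth factor gene on the meningeal list, and *Gm49394* (0.974), and for *Bmp7* they were *Cxadr* (0.949), *Gstm2* (0.948) and *Tgfbi* (0.942). Among the BMP genes themselves, *Bmp6* with *Bmp7* (0.813) and *Bmp4* with *Bmp7* (0.806) were the closest pairs. *Bmp5* had other genes nearest to it, *Draxin* (0.951), *Gm37335* (0.945) and *Tuba1a* (0.899), and its r was 0.585 with *Bmp4*, 0.402 with *Bmp6* and 0.23 with *Bmp7*.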

How the data were processed

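RNA-Seq libraries of 12 mouse cerebella and cortices were made from mRNA, sequenced in pairs, trimmed and mapped to GRCm38 with STAR by the study. The deposited values are raw counts that the authors made with featureCounts from Subread 2.0.1 (per the file headers), on GENCODE vM21, with read pairs over several genes counted for each and without regard to strand. Whether the library kit kept the strand is described differently in the sources. The 26248 features with number names (0.0506% to 0.0632% of counts) and 97 others were left out. Gene totals of 16672589 to 19887427 set the precision, and genes of a few counts, such as *Bmp3* in cerebellum, carry large counting error. Replicates are separate mice by their labels. The labels do not say whether the numbers pair mice of the 2 genotypes, and they were not taken as pairs.

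Genotypes were compared within each tissue, the genotype difference between tissues, and WT tissues, with the quasi-likelihood test of edgeR 4.0.16 in R 4.3.3 (filterByExpr, TMM, Benjamini-Hochberg over all genes tested, thresholds of the study: adjusted p under 0.05, absolute log2 fold change over 0.5, the latter not used for the interaction). SE is the log2 fold change over the root of F, and intervals are 95% from the same test. DESeq2 1.42.0, RLE factors, no filter, all 12 libraries, a replicate block and leaving out each library were alternatives. Leaving out pairs of libraries, and list medians without each library, were added after seeing the data. The test was checked on simulated counts.

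The BMP genes and all gene lists were chosen with earlier results of these data known. Named were the 10 genes, *Snx14*, *Id1* to *Id4*, *Smad6*, *Smad7*, at most 6 genes of a list with the smallest unadjusted p under 0.05 in cerebellum, all of a list with 3 or fewer tested genes, 8 preset marker genes at most, and the 3 most alike genes. A few genes that this rule names are not reported here. Motifs and printed promoters were chosen after seeing the data, as no protein table was used here. RefSeq start windows, matched by symbol, gave entries for 6 of the 10 genes, and the *Bmp4* and *Bmp5* windows are shown up to the GENCODE start. Samples of older mice were not used here.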

Additional observations from a re-analysis of the deposited data

How the results depend on the processing

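In cerebellum 1 gene was called between genotypes, against 176 by DESeq2 (165 higher, 11 lower), 347 with no filter on low counts, 45 in a fit of all 12 libraries and 1 to 254 with single libraries left out (254 without *Snx14*-KO cerebellum replicate 2). BMP genes called were 0, against 2 by DESeq2 and 2 with no filter (*Bmp4*, adjusted p = 0.0108, and *Bmp7*, adjusted p = 0.00312), and 0 with any single library left out. In cortex 1 gene was called, against 8 by DESeq2, 149 with no filter, 2 with all 12 libraries and 1 to 2 with single libraries left out, and BMP genes 0, against 1 with no filter (*Bmp6*, adjusted p = 0.000225). For the interaction 0 genes were called, against 35 by DESeq2, 418 with no filter, 0 to 257 with single libraries left out (257 without *Snx14*-KO cerebellum replicate 2) and 1 with WT cerebellum replicate 1 and *Snx14*-KO cortex replicate 2 both left out, and BMP genes 0, against 1 with no filter (*Bmp3*, adjusted p = 0.0112). For WT tissues 7496 genes (7213 to 7691) and 5 BMP genes (5 to 6) were called. The cause of these differences was not tested.

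Small log2 values changed sign when a library was left out, and none passed a test there. In cerebellum, *Nog* (-0.13 to 0.26) was -0.081 without WT replicate 2 and -0.13 without *Snx14*-KO replicate 2, and *Bmp5* (-0.028 to 0.38) was negative without WT replicate 3. In cortex, *Bmp2* (-0.042 to 0.24) was -0.042 without WT replicate 1 and -0.041 without *Snx14*-KO replicate 2, *Bmpr1b* (-0.088 to 0.035) was positive without WT replicate 1, and *Bmpr1a* (-0.039 to 0.060) was negative without *Snx14*-KO replicate 3. For the interaction, *Nog* (-0.36 to 0.040) was 0.037 without WT cerebellum replicate 1, 0.040 without *Snx14*-KO cerebellum replicate 3 and 0.015 without the pair of libraries named above, *Bmp5* was 0.090 without that pair, and *Bmp6* (-0.76 to 0.14) was positive without *Snx14*-KO cortex replicate 2. Between WT tissues, *Bmp7* (-0.59 to 0.078) was positive without WT cerebellum replicate 1 and *Nog* (-0.28 to 0.067) without WT cerebellum replicate 2.

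Same-numbered *Snx14*-KO and WT cerebella had correlations of their deviations of 0.0751, 0.0277 and -0.00741, and cortices of 0.112, -0.0424 and 0.0576. Numbers 1 and 2 in cerebellum and number 1 in cortex correlated best with their own number. The other numbers did not, so the numbers were not taken as pairs. Same-numbered WT cerebella and cortices had 0.103, 0.114 and 0.0767, each correlating best with its own number, a hint from the data only, and same-numbered *Snx14*-KO tissues had 0.295, 0.0248 and 0.0824. With a replicate block, *Bmp4* in cerebellum was 1.20 (adjusted p = 0.279) and *Bmp7* 1.15 (adjusted p = 0.351), and no call of a BMP gene changed in any of the 4 comparisons.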
